A study of Mus musculus with 12 samples.

Results

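The genes described here make cholesterol or sense it: the enzymes of cholesterol biosynthesis, the sterol sensors that control them, and further targets of the transcription factor SREBP2. They were taken by gene name from the probe annotation of the arrays, with Msmo1 also accepted under its older name Sc4mol and Sc5d under Sc5dl. The names gave 26 genes with 38 probes, out of 36095 gene names with 55681 probes on the array. Of the 26 genes, 25 had a probe bright enough to be tested, among 22130 genes tested in all. Npc1l1 was not tested, because its only probe was not well above background on all 3 arrays of any group. That probe was well above background on 7 of 12 arrays.

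The study measured RNA from whole liver of untreated mice of the BALB/c strain, either wild type or lacking interleukin-18 (Il18 knockout), at 6 or 12 weeks of age. Each of the 4 groups had 3 samples, called biological replicates in the labels, and each sample was hybridised to its own one-colour array. The labels did not give the sex of the mice, the hour of killing, whether a sample was 1 mouse or a pool, or which part of Il18 was deleted. Without that detail on the samples, the p-values measure the spread between these samples only.

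Liver makes much of the body's cholesterol and exports it in lipoproteins and as bile acids. SREBP2, encoded by Srebf2, is held in the endoplasmic reticulum by the escort protein Scap and the retention proteins Insig1 and Insig2 while sterols are plentiful. When sterols fall, Scap carries SREBP2 to the Golgi, proteases release its active part, and the genes of the pathway are transcribed together. Insig1 is itself a target of SREBP2, while Insig2 has a liver transcript that is known to be regulated apart from it, by insulin and by the circadian clock.

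Promoter sequences show what these genes share in front of their start sites. RefSeq windows (GRCm38.p6) were matched for 22 of the 26 genes, and 28 start sites were searched over the 250 bases before the start on both strands. The motifs were the core of the sterol response element, TCACCCCA, the NF-Y box CCAAT, the GC box GGGCGG, the E-box CACGTG and the AGGTCA element of nuclear receptors. Of the 22 genes, 20 held CCAAT and 19 held GGGCGG at 1 or more start sites. Counted by start site, CCAAT was found in 71.4% of the windows of these genes and in 33.8% of all 32851 windows. GGGCGG was found in 75% of their windows and in 32.7% of all windows. The exact sterol response core was rarer, in 2 of the 28 windows (7.14%) against 1.34% of all windows. CACGTG was found in 17.9% of their windows against 6.02% of all, and AGGTCA in 21.4% against 14.0%. The 200 bases before the start are shown for Hmgcs1 and Srebf2, the holders of the exact core, for Insig2, the gene with the largest genotype difference, and for Cyp51 and Nsdhl, which were higher at 12 than at 6 weeks in wild type. Capitals mark TCACCCCA and CCAAT on either strand, so that a box on the other strand reads as ATTGG, and each sequence runs 5′ to 3′ along its gene.
Hmgcs1 (chr13:119690151-119690350, plus strand): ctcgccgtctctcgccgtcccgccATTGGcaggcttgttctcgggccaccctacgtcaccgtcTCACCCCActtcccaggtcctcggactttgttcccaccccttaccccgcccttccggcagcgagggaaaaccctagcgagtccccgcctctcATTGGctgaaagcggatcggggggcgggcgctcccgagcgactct
Srebf2 (chr15:82147069-82147268, plus strand): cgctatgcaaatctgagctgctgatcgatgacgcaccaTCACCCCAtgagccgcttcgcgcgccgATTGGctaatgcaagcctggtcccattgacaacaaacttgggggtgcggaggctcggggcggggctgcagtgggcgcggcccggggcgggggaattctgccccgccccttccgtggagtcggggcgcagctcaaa
Insig2 (chr1:121332590-121332789, minus strand): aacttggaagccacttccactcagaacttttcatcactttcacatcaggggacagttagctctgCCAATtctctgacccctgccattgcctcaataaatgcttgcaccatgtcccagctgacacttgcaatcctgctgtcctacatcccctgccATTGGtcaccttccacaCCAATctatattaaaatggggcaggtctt
Cyp51 (chr5:4104698-4104897, minus strand): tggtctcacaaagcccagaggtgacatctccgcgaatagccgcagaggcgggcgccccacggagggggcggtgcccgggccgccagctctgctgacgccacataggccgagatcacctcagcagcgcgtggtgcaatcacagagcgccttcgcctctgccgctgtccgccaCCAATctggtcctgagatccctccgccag
Nsdhl (chrX:72918321-72918520, plus strand): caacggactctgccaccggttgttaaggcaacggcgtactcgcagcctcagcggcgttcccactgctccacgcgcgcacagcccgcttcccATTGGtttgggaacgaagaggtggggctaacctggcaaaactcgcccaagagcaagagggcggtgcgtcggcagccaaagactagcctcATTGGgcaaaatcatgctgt
The core lay 137 bases before the start in Hmgcs1 and 162 bases before it in Srebf2. Insig2 had 3 annotated start sites, and the one shown was chosen for having the most matches to TCACCCCA and CCAAT. It held CCAAT 3 times, 136, 46 and 29 bases before the start, while the other Insig2 windows held no CCAAT. None of the 3 Insig2 windows held TCACCCCA, CACGTG or AGGTCA. A match describes these letters only, and binding was not measured.

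Levels are given as log2 signal relative to the 75th percentile of the same array, so that 0 is that percentile and a step of 1 is a 2-fold step. They are compared between samples and not between genes. A difference is given with its standard error from limma, fitted to all 12 arrays, and a gene counts as changed when its p-value, adjusted by the Benjamini-Hochberg method over the 22130 genes, is at most 0.05. Il18 itself stood at 2.40 ± 0.05 (SD, n = 3) in wild type and at -0.14 ± 0.19 in knockout at 6 weeks, a difference of -2.54 ± 0.11 (adjusted p = 2.47e-06). At 12 weeks the Il18 difference was -2.34 ± 0.11 (adjusted p = 1.1e-05). Whether its probe lies in the deleted part was not given. The arrays lay on 2 slides: wild type at 6 weeks shared slide 1 with the first 12-week wild-type replicate, and slide 2 carried the other 8 arrays. At 6 weeks slide and genotype cannot be told apart within the age, and only the wild-type arrays of 12 weeks link the slides. Clock genes, whose RNA cycles with the time of day, also separated the groups: 14 of 16 changed with genotype at 6 weeks and 7 of 16 at 12 weeks. Of all genes, 21.1% and 8.21% changed in these comparisons. All 6 hepatocyte markers were measured and, summed on the linear scale relative to the same percentile, they ran from 3390 to 4270 over the 12 arrays. That sum is mostly Alb and Serpina1a, the brightest of the 6. With genotype 2 of the 6 were higher at 6 weeks (33.3%, against 21.1% of all genes). At 12 weeks 1 was higher and 1 lower (33.3%, against 8.21%). Summed erythroid markers ran from 16.0 to 19.9 in wild type at 6 weeks and from 33.8 to 54.0 in the other groups, but the 3 tested erythroid genes did not move one way. At 6 weeks Alas2 was higher in knockout by 1.46 ± 0.13 and Slc4a1 by 0.41 ± 0.12, while Klf1 was lower, at -0.91 ± 0.23. The neutrophil markers S100a8 and S100a9 were higher in knockout at 6 weeks, by 0.74 ± 0.11 and 0.90 ± 0.09. Summed NK and T cell markers ran from 36.3 to 61.0 in knockout and from 60.8 to 101 in wild type, and most of that sum is Cd4. Its means in wild type and knockout were 5.80 and 5.45 at 6 weeks and 6.07 and 5.11 at 12 weeks. Those of Nkg7 were 2.30 and 2.07, then 2.19 and 2.11. All 4 tested genes had lower means in knockout at both ages, and 1 of them passed at 6 weeks and 2 at 12 weeks. The adipocyte markers Plin1 and Lep and the pancreas marker Pnlip were not above background on any array. Of the same lists, Cfd was the 1 adipocyte gene tested, and it differed by 2.84 ± 0.86 at 12 weeks without passing (adjusted p = 0.0698). On the linear scale Cfd ran from 0.972 to 1.49 in knockout and from 0.0916 to 0.211 in wild type at that age. Of the pancreas genes Cela1 and Ins2 were tested and passed in no comparison, with Ins2 well above background on 12 arrays. The part of the slide, the clock and these markers in the results was not tested, and in whole liver fewer cells of a type and less RNA per cell cannot be told apart.

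Few of the sterol genes differed by genotype. At 6 weeks Insig2, Acat2 and Pmvk rose in knockout and Stard4 fell. These are 4 of 25 genes, or 16% of them, while 21.1% of all genes tested changed in that comparison, 11.7% higher and 9.35% lower. The genotypes did not overlap for 6 of the 25 genes at 6 weeks, 5 of them higher in knockout (25.3% of all genes) and 1 lower (22.5%), against 47.9% of all genes in either direction. At 12 weeks Sc5d alone passed, lower in knockout, which is 1 of 25 against 8.21% of all genes, 5.65% higher and 2.56% lower. There the genotypes did not overlap for 7 of 25, 3 higher in knockout (17.5% of all genes) and 4 lower (9.87%), against 27.4% of all genes.

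With age, all calls in wild type were in 1 direction. Insig2, Fdps, Cyp51, Nsdhl and Dhcr7 were higher at 12 than at 6 weeks, 5 of 25 with none lower, where 9.04% of all genes changed, 4.61% higher and 4.43% lower. The ages did not overlap for 10 of the 25 genes, each of them higher at 12 weeks, where 26.0% of all genes did not overlap, 12.5% higher and 13.5% lower. In knockout 1 was higher (Stard4) and 1 lower (Insig2) at 12 weeks, with 6.91% of all genes changed, 3.98% higher and 2.93% lower. The knockout ages did not overlap for 12 of 25, 8 higher (15.4% of all genes) and 4 lower (16.5%), against 31.9% of all genes. The genotype difference itself differed between the ages for 2 of 25, upward for Stard4 and downward for Insig2, and for 10.3% of all genes, 5.58% upward and 4.76% downward. The share called lay above that of all genes for wild type with age (20% against 9.04%), close to it for knockout with age (8% against 6.91%), and below it in the genotype comparisons at both ages.

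The medians place the group as a whole. The median difference of the 25 genes between knockout and wild type was 0.19 at 6 weeks, with 17 of 25 above 0, and -0.09 at 12 weeks, with 8 of 25 above 0. Over all genes tested the medians were 0.02 and 0.01, with 52% above 0 at both ages. Between 12 and 6 weeks the median of the 25 was 0.41 in wild type, with 21 above 0, and 0.12 in knockout, with 16 above 0. Over all genes it was -0.02 in both, with 46% above 0 in wild type and 45.8% in knockout. The comparisons share arrays: wild type at 6 weeks enters both the 6-week genotype comparison and the age comparison in wild type. For 16 of 25 genes at 6 weeks and 20 of 25 at 12 weeks the 95% interval of the genotype difference lay wholly within 1 log2 unit of 0. For the others a 2-fold difference lies within the interval.

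**Figure D1:**
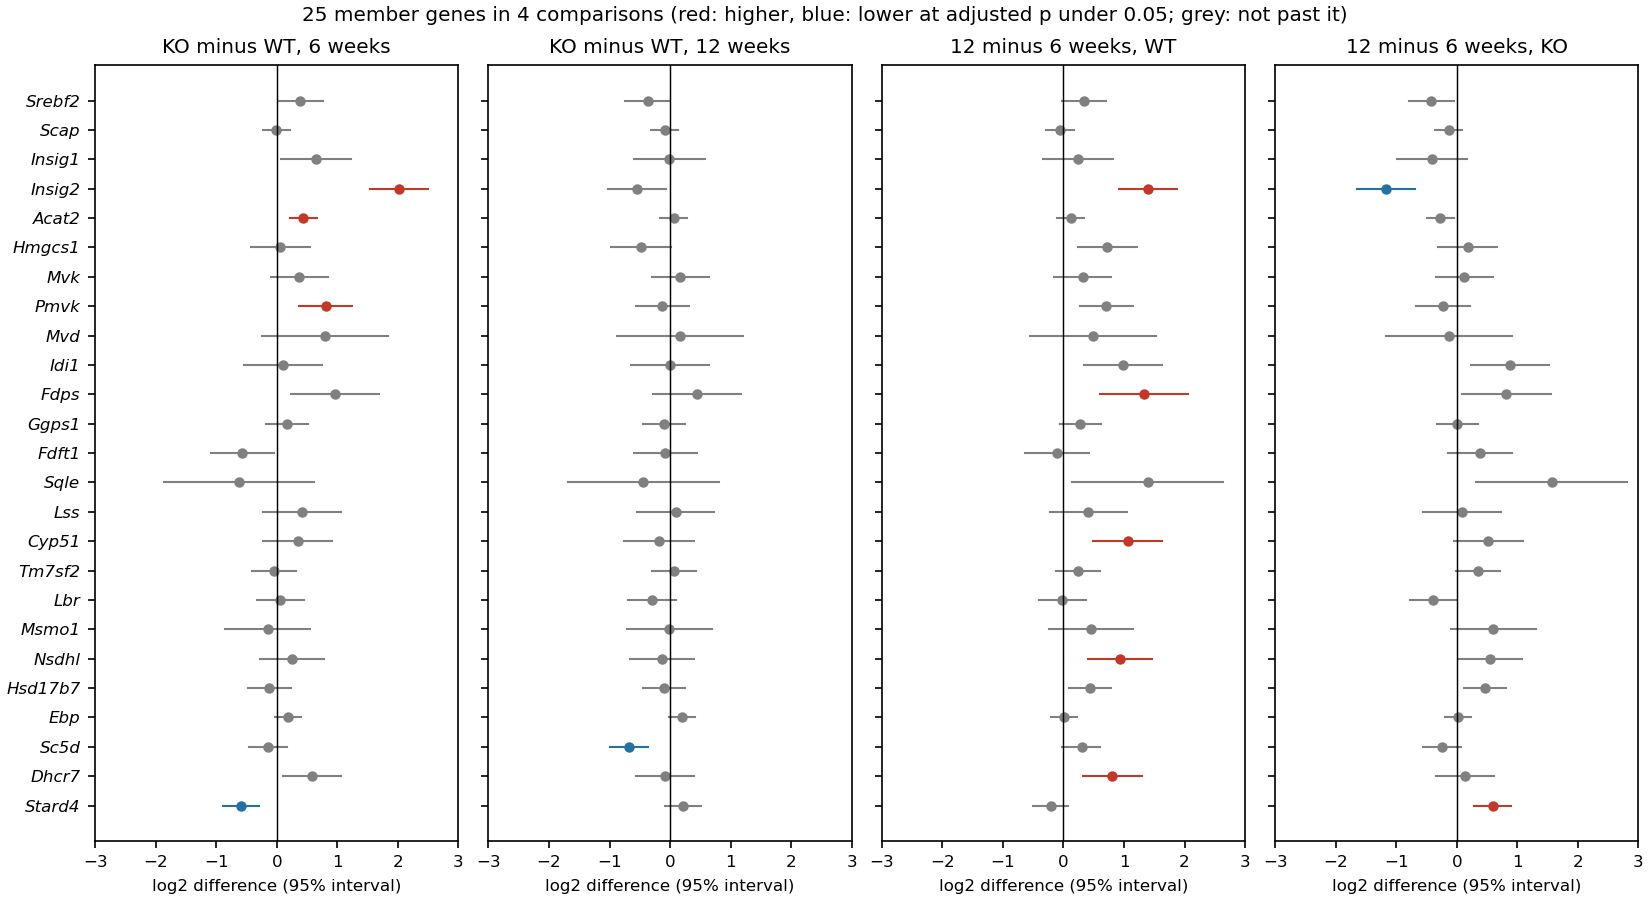
Log2 differences (points) with 95% intervals (lines) for the 25 tested genes in 4 comparisons, from limma on 12 arrays with 3 in each group. Red and blue points passed an adjusted p of 0.05, and Insig2 stands furthest from 0 in the 6-week genotype comparison, at 2.02.

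Insig2, which retains the SREBP2 escort in the endoplasmic reticulum, was 4.05-fold higher in knockout than in wild type at 6 weeks. Its levels in wild type at 6 weeks were 3.38, 4.26 and 4.25. In knockout at that age they were 6.01, 6.01 and 5.93. At 12 weeks wild type stood at 5.43, 5.47 and 5.16. Knockout at 12 weeks stood at 5.05, 4.61 and 4.78. None of the 4 groups overlapped with another, and they were ordered wild type at 6 weeks, knockout at 12 weeks, wild type at 12 weeks and knockout at 6 weeks from low to high. The 6-week genotype difference was 2.02 ± 0.22 (adjusted p = 0.000316), while the 12-week difference was -0.54 ± 0.22 and did not pass (adjusted p = 0.152). With age Insig2 rose in wild type, by 1.39 ± 0.22 (adjusted p = 0.00518), and fell by 1.17 on the log2 scale in knockout (adjusted p = 0.0117). The test of the difference between the ages gave -2.56 ± 0.31 (adjusted p = 0.00108).

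The Insig2 probe lies at chr1:123201085-123201144 (mm9, as the array files give it). A second Insig2 probe, at chr1:123202133-123202192, gave 1.97 ± 0.20 for genotype at 6 weeks, 1.32 ± 0.20 with age in wild type and -1.29 ± 0.20 with age in knockout, each past the threshold over all probes. The 6-week rise passed without any 1 of the 12 arrays, between 1.73 and 2.17. With slide as a fixed block it was 2.13 (adjusted p = 0.0323). Within slide 2 the age difference in knockout was -1.17 (adjusted p = 0.00835). That fall did not pass without replicate 2 of knockout at 12 weeks, at -1.07 (adjusted p = 0.0561). The 12-week genotype difference passed without replicate 1 of wild type at 6 weeks, at -0.54 (adjusted p = 0.0336). The age difference in wild type did not pass within slide 1, which has 1 array of 12 weeks, at 1.46 (adjusted p = 0.24), or with only these 2 groups in the fit (adjusted p = 0.0539).

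Clock genes moved with Insig2 across the groups. Dbp, a clock output gene, had levels of 7.04, 6.91 and 6.82 in wild type and 0.25, 0.14 and -0.09 in knockout at 6 weeks. At 12 weeks Dbp stood at 4.92, 5.56 and 6.21 in wild type and 6.65, 6.87 and 6.86 in knockout. By group means, the order of Dbp was the reverse of the order of Insig2. Arntl, the positive limb of the clock, differed by 5.15 ± 0.38 between knockout and wild type at 6 weeks (adjusted p = 3.98e-05), by 3.1 ± 0.38 with age in wild type and by -3.21 ± 0.38 with age in knockout. Its groups stood in the same order as those of Insig2. Nr1d1, a clock repressor, differed by -1.77 ± 0.33 at 6 weeks (adjusted p = 0.00558) and by 2.06 ± 0.33 with age in knockout, but by 0.19 ± 0.33 with age in wild type (adjusted p = 0.742). The part of the clock in the Insig2 difference was not tested.

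**Figure D2:**
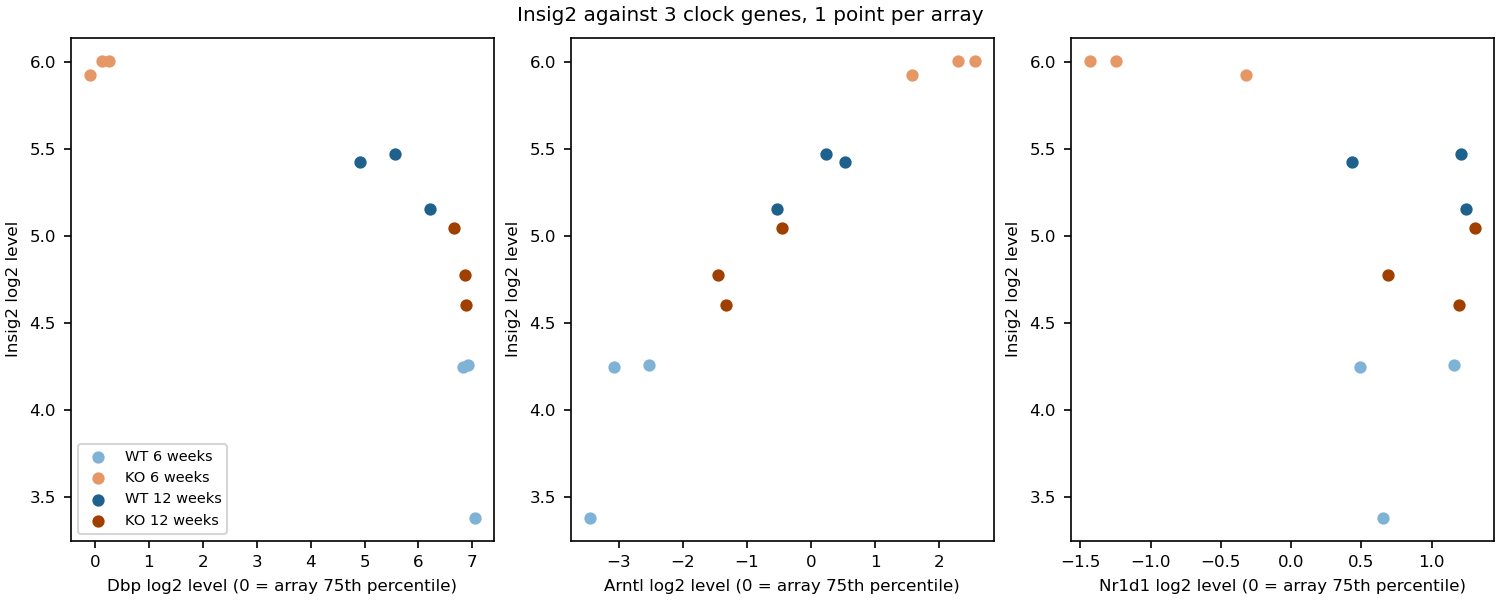
Insig2 log2 level against the log2 levels of Dbp, Arntl and Nr1d1, with 1 point per array and colours for the 4 groups. The 3 knockout arrays of 6 weeks sit apart, with Insig2 between 5.93 and 6.01 and Dbp between -0.09 and 0.25.

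The other 3 genes of sterol sensing did not pass in any comparison. Insig1, the SREBP2-driven retention protein, stood at 2.45, 1.48 and 1.45 in wild type and 2.53, 2.62 and 2.16 in knockout at 6 weeks. At 12 weeks it stood at 1.84, 2.40 and 1.87 in wild type and 2.19, 1.97 and 1.92 in knockout. Replicate 1 of wild type at 6 weeks lay with the knockout arrays, and the 6-week difference was 0.65 ± 0.26 (adjusted p = 0.101). Without that replicate it was 0.97 and passed (adjusted p = 0.0129). Srebf2 itself stood at -0.99, -1.63 and -1.14 in wild type and -0.83, -0.79 and -0.97 in knockout at 6 weeks, without overlap. At 12 weeks the order of the genotypes was the opposite, with -1.14, -0.65 and -0.94 in wild type and -1.33, -1.32 and -1.19 in knockout. The differences were 0.39 ± 0.17 (adjusted p = 0.114) and -0.37 ± 0.17 (adjusted p = 0.192), and the difference between the ages was -0.77 ± 0.23 (adjusted p = 0.0655). Without replicate 1 of wild type at 6 weeks that difference between the ages was -0.90 (adjusted p = 0.0422), and without replicate 1 of wild type at 12 weeks it was -0.88 (adjusted p = 0.0359). The second Srebf2 probe gave -0.02 ± 0.12 at 6 weeks and -0.24 ± 0.12 at 12 weeks, so the 2 probes differ in sign at 6 weeks. Scap stayed between 5.57 and 5.90 on all 12 arrays, and its 4 differences ran from -0.13 to -0.01 with a standard error of 0.10.

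**Figure D3:**
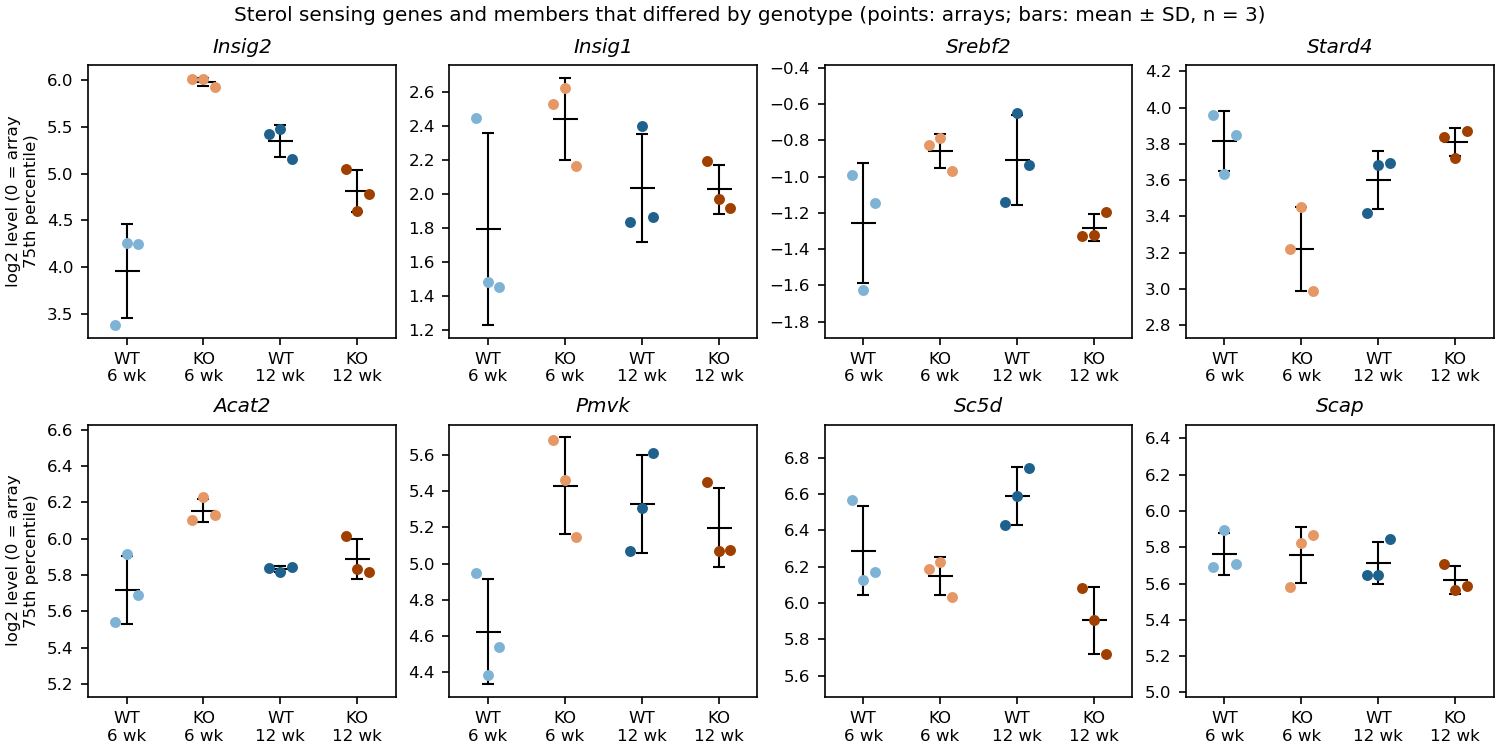
Log2 levels on each array (points) with the group mean and SD (bars, n = 3) for the sterol sensing genes and for the genes that differed by genotype at either age; 0 is the 75th percentile of the array. Insig2 separates all 4 groups, Stard4 is lowest in knockout at 6 weeks, and Sc5d is lowest in knockout at 12 weeks.

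The early steps join acetyl-CoA units and carry them through mevalonate to isoprenoid units. Of the 8 genes of this stretch, 2 changed with genotype at 6 weeks, both higher in knockout, and none at 12 weeks. That is 25% of these genes, where 21.1% of all genes changed. All 8 differences at 6 weeks were above 0, from 0.06 to 0.96, where 52% of all genes were above 0. These values share the same arrays, with wild type on slide 1 and knockout on slide 2. Across the alternative fits Hmgcs1 went as low as -0.35, Idi1 -0.37 and Ggps1 -0.06, while the rest of the 8 stayed above 0. Acat2, the cytosolic thiolase that makes acetoacetyl-CoA, stood at 5.54, 5.91 and 5.69 in wild type and 6.10, 6.23 and 6.13 in knockout at 6 weeks. The groups did not overlap, and the difference was 0.44 ± 0.10 (adjusted p = 0.014), a 1.36-fold step. At 12 weeks Acat2 overlapped, with 5.84, 5.81 and 5.84 in wild type and 6.02, 5.83 and 5.82 in knockout. The 6-week call did not pass without replicate 2 of knockout at 6 weeks, at 0.40 (adjusted p = 0.0534), or with slide as a fixed block, at 0.45 (adjusted p = 0.231).

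Pmvk, which phosphorylates mevalonate phosphate, stood at 4.95, 4.38 and 4.54 in wild type and 5.68, 5.46 and 5.15 in knockout at 6 weeks. Every knockout array lay above every wild-type array, and Pmvk rose by 0.81 ± 0.20 (adjusted p = 0.0192). Its second probe gave 0.73 ± 0.20 (adjusted p = 0.0278 over all probes). At 12 weeks Pmvk stood at 5.07, 5.31 and 5.61 in wild type and 5.45, 5.07 and 5.07 in knockout, with overlap. With slide as a fixed block the 6-week value of Pmvk was 0.42 (adjusted p = 0.566). Leaving out replicate 2 or 3 of wild type or replicate 1 or 2 of knockout at 6 weeks each ended the call, with values from 0.68 to 0.79 and adjusted p from 0.0575 to 0.07. For the age comparison in wild type Pmvk was 0.71 ± 0.20, just short of the threshold (adjusted p = 0.0527). The difference between the ages for Pmvk was -0.94 ± 0.28 (adjusted p = 0.0604). It passed with normexp background correction, at -0.92 (adjusted p = 0.0439), with an intensity trend (adjusted p = 0.0318) and over probes well above background on all 12 arrays (adjusted p = 0.049).

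Fdps, which builds farnesyl diphosphate, had the largest 6-week genotype difference of the early steps, without passing: 0.96 ± 0.33 (adjusted p = 0.0633). With normexp background correction it passed, at 0.96 (adjusted p = 0.043). Its levels were 5.69, 4.20 and 4.79 in wild type and 6.17, 5.99 and 5.39 in knockout at 6 weeks. At 12 weeks they were 6.04, 6.44 and 6.18 in wild type and 6.81, 6.45 and 6.73 in knockout. The lowest 6-week wild-type array and the highest differed by more than the group means did. With age Fdps rose in wild type, by 1.33 ± 0.33 (adjusted p = 0.0336), a 2.51-fold step without overlap. In knockout the age difference was 0.82 ± 0.33 (adjusted p = 0.175), and the test of the difference between the genotypes gave -0.51 ± 0.46 (adjusted p = 0.534).

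Idi1 and Hmgcs1 did not pass with age in wild type, but did with normexp background correction, at 0.95 and 0.72 (adjusted p = 0.0394 and 0.0481). Idi1, the isomerase of the isoprenoid units, stood at 4.69, 3.62 and 4.29 in wild type at 6 weeks and 4.87, 5.47 and 5.21 at 12 weeks, a difference of 0.98 ± 0.29 (adjusted p = 0.0622). In knockout it stood at 4.46, 4.63 and 3.81 at 6 weeks and 5.42, 4.97 and 5.16 at 12 weeks, a difference of 0.88 ± 0.29 (adjusted p = 0.101). The ages did not overlap in either genotype, and the genotype differences were 0.10 ± 0.29 at 6 weeks and 0.00 ± 0.29 at 12 weeks. Hmgcs1, the synthase that makes HMG-CoA, stood at 5.62, 5.18 and 5.37 in wild type at 6 weeks and 5.84, 6.24 and 6.25 at 12 weeks (0.72 ± 0.22, adjusted p = 0.0681). In knockout Hmgcs1 stood at 5.62, 5.62 and 5.11 at 6 weeks and 6.04, 5.59 and 5.26 at 12 weeks, with overlap.

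Mvk, Mvd and Ggps1 complete the early steps, and none passed in any comparison. Mvk, the first kinase of mevalonate, differed by 0.37 ± 0.21 between the genotypes at 6 weeks and by 0.17 ± 0.21 at 12 weeks. Mvd, the decarboxylase that yields the isoprenoid unit, ranged from -1.04 to 0.65 within wild type at 6 weeks and had a standard error of 0.47 in every comparison of 2 groups. Its 6-week difference of 0.80 had a 95% interval from -0.24 to 1.84. Ggps1, which leads to the non-sterol branch, stayed between 0.32 and 0.91 on all arrays and differed by 0.17 ± 0.15 at 6 weeks. A second Mvk probe gave 0.22 ± 0.23 at 6 weeks, and the further Ggps1 probes gave 0.21 ± 0.17 and 0.15 ± 0.10, with none past the threshold in any comparison.

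Squalene formation and closure into lanosterol involve 3 genes, none of which passed in any comparison. Fdft1, squalene synthase, stood at 3.88, 2.97 and 3.39 in wild type and 3.11, 3.01 and 2.42 in knockout at 6 weeks, with overlap and a difference of -0.57 ± 0.24 (adjusted p = 0.112). Its second probe, well above background on 7 of 12 arrays, gave -0.39 ± 0.37 at 6 weeks and -0.78 ± 0.37 at 12 weeks. Sqle, the epoxidase and a rate-controlling step, had the widest spread: 3.09, 0.98 and 2.68 in wild type and 1.84, 2.24 and 0.83 in knockout at 6 weeks. At 12 weeks Sqle stood at 3.25, 4.34 and 3.33 in wild type and 3.71, 2.73 and 3.17 in knockout. Every 12-week array lay above every 6-week array of its genotype, but the differences of 1.39 ± 0.56 in wild type and 1.57 ± 0.56 in knockout did not pass (adjusted p = 0.153 and 0.13). Lss, which closes the rings, stood at 0.44, -0.72 and -0.52 in wild type and 0.64, 0.06 and -0.23 in knockout at 6 weeks (0.42 ± 0.29, adjusted p = 0.319).

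The later enzymes turn lanosterol into cholesterol, and 3 of the 9 genes of this stretch were higher at 12 than at 6 weeks in wild type, where 4.61% of all genes were higher. Cyp51, the demethylase that acts on lanosterol, stood at 0.83, -0.22 and 0.28 in wild type at 6 weeks and 1.17, 1.51 and 1.39 at 12 weeks. The ages did not overlap, and Cyp51 rose by 1.06 ± 0.26 (adjusted p = 0.0325), a 2.08-fold step. Nsdhl, a dehydrogenase of the same demethylation sequence, stood at 1.83, 0.96 and 1.26 at 6 weeks and 2.14, 2.32 and 2.38 at 12 weeks in wild type, and rose by 0.93 ± 0.24 (adjusted p = 0.0379). Its second probe gave 1.08 ± 0.25 (adjusted p = 0.0271 over all probes). Dhcr7, which catalyses the last reduction of one route to cholesterol, stood at 1.91, 1.09 and 1.04 at 6 weeks and 2.14, 2.18 and 2.14 at 12 weeks in wild type, and rose by 0.81 ± 0.22 (adjusted p = 0.0461).

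In knockout the same 3 genes differed with age by 0.52 ± 0.26 for Cyp51, 0.54 ± 0.24 for Nsdhl and 0.14 ± 0.22 for Dhcr7, and none passed. Their knockout levels at 6 weeks were 0.82, 0.93 and 0.19 for Cyp51, 1.87, 1.65 and 1.30 for Nsdhl and 2.17, 1.99 and 1.63 for Dhcr7. At 12 weeks they were 1.36, 1.07 and 1.09 for Cyp51, 2.50, 2.11 and 1.84 for Nsdhl and 2.25, 1.90 and 2.05 for Dhcr7. An age effect that passed in one genotype only is not shown to differ between them: the tests of that difference gave -0.53 ± 0.37, -0.39 ± 0.34 and -0.67 ± 0.31, with adjusted p of 0.398, 0.515 and 0.203.

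The age calls in wild type other than Insig2 did not hold with slide as a block or without single arrays. With slide as a fixed block Fdps was 1.15 (adjusted p = 0.236), Cyp51 0.87 (adjusted p = 0.247), Nsdhl 0.79 (adjusted p = 0.26) and Dhcr7 0.80 (adjusted p = 0.22). In that fit 3.29% of all genes passed, against 9.04% with no block. Leaving out replicate 2 or 3 of wild type at either age left Insig2 as the 1 sterol gene past the threshold each time. From 4.44% to 8.68% of all genes passed there. In those fits Fdps ran from 0.98 to 1.35, Cyp51 from 0.80 to 1.05, Nsdhl from 0.73 to 0.91 and Dhcr7 from 0.66 to 0.82. Without replicate 1 of wild type at 6 weeks, or without replicate 1 of wild type at 12 weeks, 7 genes passed, all higher, where 5.21% and 17.4% of all genes passed. Leaving out single knockout arrays left from 2 to 5 genes, where 6.91% to 8.24% of all genes passed. Of the markers named above, Alas2 was higher with age in wild type by 1.04 ± 0.13 and Klf1 lower, at -1.08 ± 0.23. S100a8 and S100a9 were higher by 0.67 ± 0.11 and 0.79 ± 0.09, and summed neutrophil markers ran from 1.05 to 1.22 at 6 weeks and stood at 1.85 or above at 12 weeks. Of 16 clock genes, 3 were higher and 6 lower, against 4.61% and 4.43% of all genes. The part of the markers and the clock in the age calls was not tested.

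**Figure D4:**
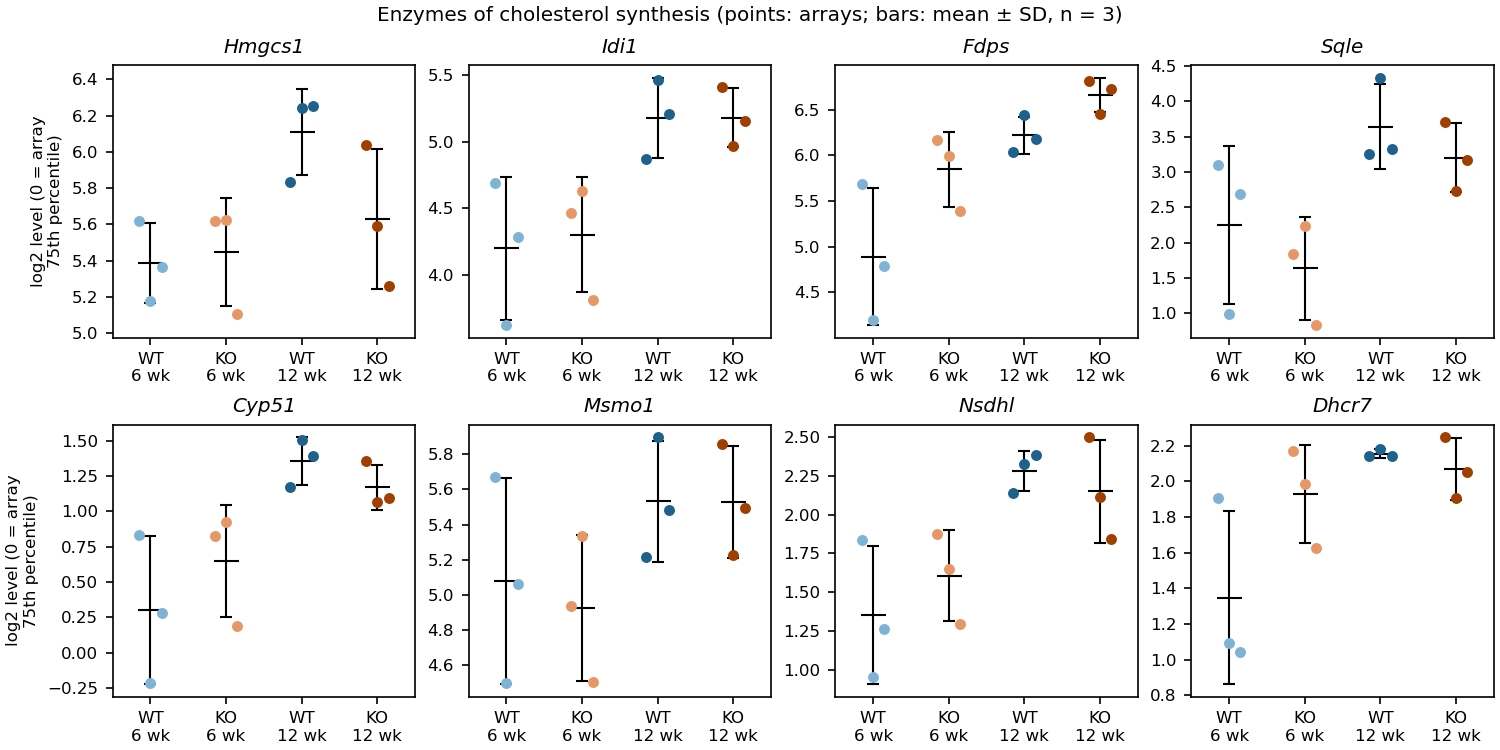
Log2 levels on each array (points) with the group mean and SD (bars, n = 3) for 8 enzymes of cholesterol synthesis, in pathway order; 0 is the 75th percentile of the array. Fdps, Cyp51, Nsdhl and Dhcr7 are higher at 12 than at 6 weeks in wild type without overlap, and the 6-week wild-type arrays spread widely, as in Sqle from 0.98 to 3.09.

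Sc5d, the desaturase near the end of the pathway, was the only one of the 25 genes to differ by genotype at 12 weeks. It stood at 6.43, 6.59 and 6.75 in wild type and 6.08, 5.91 and 5.72 in knockout, without overlap. The difference was -0.68 ± 0.14 (adjusted p = 0.0188), so that wild type was 1.61-fold higher. At 6 weeks the levels of 6.57, 6.12 and 6.17 in wild type and 6.19, 6.23 and 6.03 in knockout overlapped, with a difference of -0.14 ± 0.14 (adjusted p = 0.495). The difference between the ages was -0.54 ± 0.20 (adjusted p = 0.116), so the 2 ages were not shown to differ. Within slide 2, which holds arrays of both genotypes at 12 weeks, the difference was -0.76 (adjusted p = 0.0325). It did not pass without replicate 2 or 3 of knockout at 12 weeks, at -0.68 and -0.59 (adjusted p = 0.0527 and 0.0726), or with only the 2 groups in the fit (adjusted p = 0.0648). The Sc5d probe, at chr9:42062857-42062916 (mm9), lies on the chromosome of Il18, 8.33 Mb from the Il18 probe. Scap is on that chromosome too, 59.9 Mb away.

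Another 5 enzymes of this stretch passed in no comparison. Msmo1, the sterol methyl oxidase, stood at 5.67, 4.50 and 5.06 in wild type and 4.94, 5.34 and 4.50 in knockout at 6 weeks, and differed by -0.15 ± 0.31. Hsd17b7, a reductase of the demethylation sequence, had ages that did not overlap in either genotype, with differences of 0.44 ± 0.16 in wild type and 0.46 ± 0.16 in knockout (adjusted p = 0.107 and 0.109). Ebp, the sterol isomerase, was higher in knockout without overlap at both ages, by 0.19 ± 0.09 and 0.20 ± 0.09 (adjusted p = 0.175 and 0.227). Tm7sf2 and Lbr both carry sterol reductase activity. Tm7sf2 differed by -0.05 ± 0.16 at 6 weeks and 0.06 ± 0.16 at 12 weeks. The second probes of Hsd17b7, Tm7sf2 and Lbr gave -0.13 ± 0.17, -0.24 ± 0.16 and 0.42 ± 0.25 for genotype at 6 weeks, and none passed in any comparison. That second Lbr probe was well above background on 5 of 12 arrays, with 0 of them in wild type and 1 in knockout at 6 weeks. Lbr, also a protein of the nuclear envelope, stood at 0.33, 0.27 and 1.08 in wild type at 6 weeks. Without the third of these arrays its 12-week genotype difference of -0.30, from 0.48, 0.52 and 0.61 in wild type to 0.24, 0.28 and 0.18 in knockout, passed (adjusted p = 0.0455), as did its 6-week difference, at 0.32 (adjusted p = 0.0386).

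Stard4, a carrier of cholesterol between membranes and an SREBP2 target, was the 1 gene of the 25 that fell with genotype at 6 weeks. It stood at 3.96, 3.63 and 3.85 in wild type and 3.22, 3.45 and 2.99 in knockout. The groups did not overlap, and the difference was -0.59 ± 0.13 (adjusted p = 0.0135). At 12 weeks Stard4 stood at 3.42, 3.69 and 3.70 in wild type and 3.84, 3.72 and 3.87 in knockout, so that the genotypes did not overlap in the opposite order, by 0.21 ± 0.13 (adjusted p = 0.364). The difference between the ages was 0.80 ± 0.19 (adjusted p = 0.0237), and Stard4 rose with age in knockout by 0.59 ± 0.13 (adjusted p = 0.0285). Its second probe gave -0.43 ± 0.16 at 6 weeks, 0.41 ± 0.16 with age in knockout and 0.32 ± 0.22 between the ages, none past the threshold (adjusted p over all probes 0.0815, 0.165 and 0.417). For genotype at 12 weeks that probe gave -0.11 ± 0.16, with overlap, so the opposite order was seen with the first probe only.

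The 6-week fall of Stard4 passed without any 1 array, from -0.71 to -0.48. With slide as a fixed block it was -0.87 (adjusted p = 0.0791). The rise with age in knockout passed in 7 of 12 fits that left out an array. It did not pass without replicate 1 or 3 of knockout at 6 weeks or without each in turn of the 3 knockout arrays of 12 weeks, where Stard4 ran from 0.47 to 0.63. The difference between the ages passed in 8 of 12 such fits. It did not pass without replicate 1 or 3 of wild type at 6 weeks or replicate 1 or 3 of knockout at 12 weeks, where it ran from 0.73 to 0.79. Neither call held with no filter on dim probes, where Stard4 was 0.59 with age in knockout and 0.80 between the ages (adjusted p = 0.0712 and 0.0596). The same was so with the mean of a gene's probes, at 0.50 and 0.56 (adjusted p = 0.0577 and 0.0972), and with the replicate number as a block (adjusted p = 0.0568 and 0.0514). Npc1l1, the sterol uptake protein, is the other transport gene, and no level is given for it.

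Within a group, the arrays moved these genes together. In wild type at 6 weeks replicate 1 was the highest of its 3 arrays for 20 of 25 genes, where it was the highest for 40.9% of all genes tested. Replicate 2 was the lowest for 18 of 25, where it was the lowest for 33.5% of all genes. In knockout at 6 weeks replicate 3 was the lowest for 22 of 25, against 25.6% of all genes. In wild type at 12 weeks replicate 1 was the lowest for 19 of 25, against 41.1%, and in knockout at 12 weeks replicate 1 was the highest for 21 of 25, against 39.8%. The enzymes with the widest spread within groups were Sqle, with a within-group SD of 0.77, and Mvd, with 0.64, while Ebp and Acat2 had 0.11. Insig2 was 1 of 4 genes that were lowest in replicate 1 of wild type at 6 weeks. That array held the lowest level of Insig2 in its group, 3.38, and the highest level of Insig1, 2.45. Genes of 1 array share its RNA and its hybridisation, so these counts describe 12 arrays and carry no p-value.

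The genotype counts at 6 weeks depended on which array was left out. Without replicate 1 of wild type at 6 weeks, 8 of the 25 genes passed at 6 weeks in place of 4: Insig1, Insig2, Acat2, Pmvk, Fdps, Lss and Dhcr7 higher and Stard4 lower. In that fit 13.7% of all genes passed, below the 21.1% with all arrays, while the count of sterol genes was higher. There Fdps was 1.35 (adjusted p = 0.0104), Dhcr7 0.86 (adjusted p = 0.00864) and Lss 0.77 (adjusted p = 0.0477). The difference between the ages then passed for 6 genes, all lower: Srebf2, Insig1, Insig2, Pmvk, Sc5d and Dhcr7, where 8.35% of all genes passed, 3.91% lower. Without replicate 2 or 3 of wild type at 6 weeks, 3 and 4 genes passed with genotype at that age (11.7% and 12.9% of all genes). For replicates 1, 2 and 3 of knockout at 6 weeks the counts were 3, 2 and 4 (13.2%, 11.9% and 14.1%). By group means, wild type at 6 weeks was the lowest of the 4 groups for 15 of 25 genes, knockout at 6 weeks for 6 and knockout at 12 weeks for 4. The matching shares of all genes were not counted, so this order is not shown to be particular to the sterol genes.

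**Figure D5:**
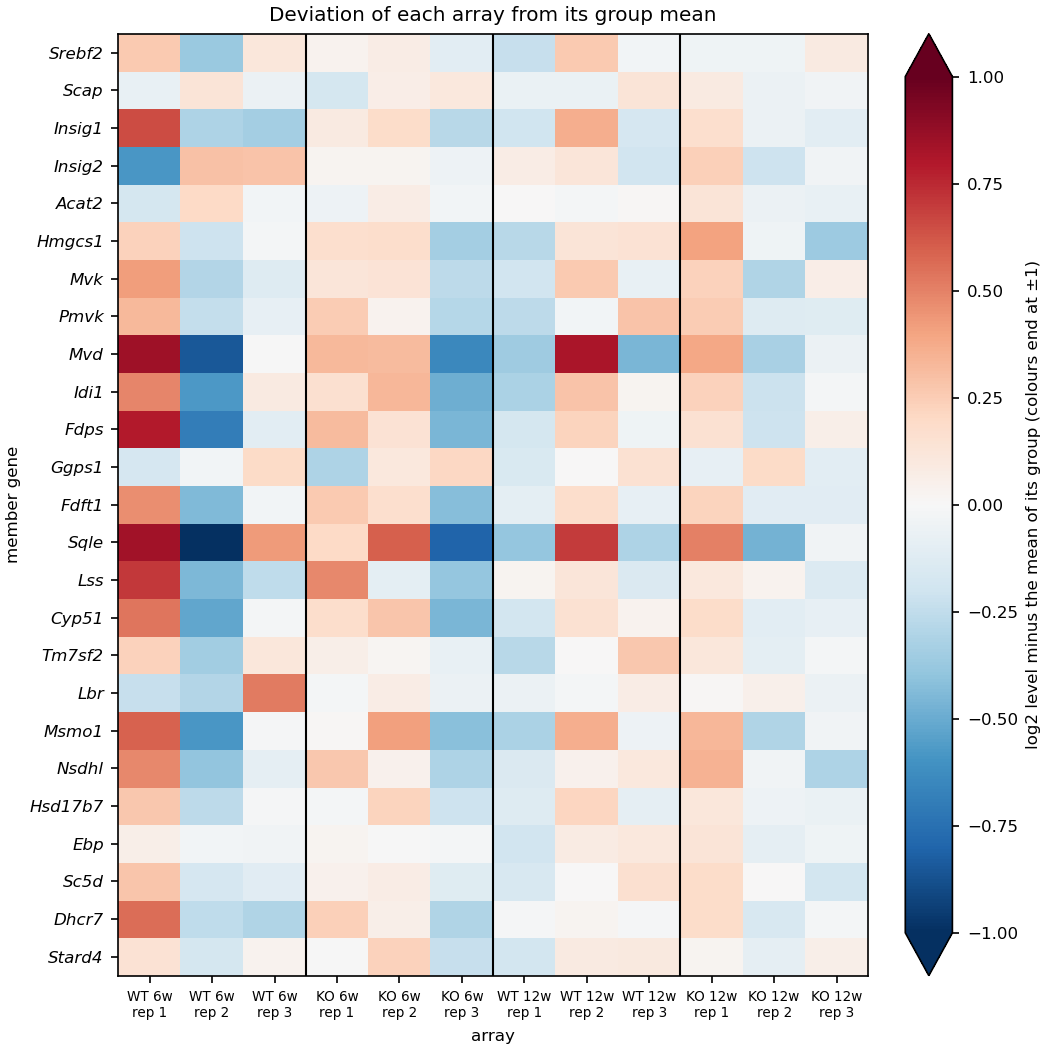
Each array's log2 level minus the mean of its group for the 25 tested genes, in pathway order, with colours from -1 to 1. Replicate 1 of wild type at 6 weeks is red for most enzymes and blue for Insig2, and replicate 3 of knockout at 6 weeks is blue for 22 genes that are at their lowest there.

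Genes around the pathway moved in both directions at 6 weeks, where 11.7% of all genes were higher in knockout and 9.35% lower. Among 9 further genes of sterol and isoprenoid synthesis, 3 were higher in knockout at 6 weeks. Acly, which supplies cytosolic acetyl-CoA, rose by 0.95 ± 0.24 (adjusted p = 0.0229). Pdss2, of ubiquinone synthesis, and Dhdds, of dolichol synthesis, rose by 0.40 ± 0.07 and 0.52 ± 0.16.

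Of 9 genes that process SREBP or turn it over, 1 was higher and 1 lower at 6 weeks, or 22.2% against 21.1% of all genes. Rnf145, a ubiquitin ligase of the sterol sensing machinery, stood at 1.41, 1.17 and 1.48 in wild type and -0.30, -0.20 and -0.42 in knockout. It fell by 1.66 on the log2 scale (adjusted p = 0.000132), and at 12 weeks its genotypes overlapped, with a difference of -0.05 ± 0.15. With age Rnf145 fell by 1.20 on the log2 scale in wild type (adjusted p = 0.00172), so that wild type at 6 weeks stood apart from the other 3 groups. Syvn1, a ligase of endoplasmic reticulum degradation, was higher in knockout at both ages, by 0.99 ± 0.26 and 1.06 ± 0.26 (adjusted p = 0.0254 and 0.0374). Srebf1, the gene of the related factor that drives fatty acid synthesis, differed by 0.37 ± 0.30 and 0.79 ± 0.30 and did not pass.

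Among 8 other SREBP2 targets, Slc25a1, the mitochondrial citrate carrier, was higher at 6 weeks by 0.38 ± 0.12 (adjusted p = 0.0432), and Tmem97, a sterol-responsive membrane protein, was lower, at -0.59 ± 0.12 (adjusted p = 0.00964). These are 25% of the 8, against 21.1% of all genes, and none of the 8 passed at 12 weeks, where 8.21% of all genes did. Of 8 genes of LXR signalling and sterol export, 1 passed at 6 weeks (12.5%, against 21.1% of all genes) and none at 12 weeks. It was Abca1, the exporter that loads lipoproteins with cholesterol, at 0.37 ± 0.07 (adjusted p = 0.00793). The 6-week differences of these 8 genes ran from -0.55 to 0.37, with 4 above 0.

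The largest differences around the pathway were in bile acid synthesis, where 3 of 11 genes of storage, uptake and bile acid conversion passed at 6 weeks. That is 27.3% of the 11, against 21.1% of all genes. Cyp7b1, the oxysterol hydroxylase of the alternative route, stood at 3.59, 3.68 and 3.49 in wild type and 7.11, 7.03 and 7.41 in knockout, a difference of 3.60 ± 0.21 (adjusted p = 9.99e-06). At 12 weeks Cyp7b1 stood at 7.23, 6.84 and 6.38 in wild type and 7.30, 7.02 and 7.53 in knockout, so the 3 wild-type arrays of 6 weeks were the low ones. Cyp7a1, the rate-limiting enzyme of the classic route, was lower in knockout at 6 weeks, at -2.51 ± 0.56 (adjusted p = 0.0132). Npc1, which moves cholesterol out of lysosomes, was lower too, at -0.86 ± 0.14 (adjusted p = 0.00288). None of the 11 passed at 12 weeks, where 8.21% of all genes did. Cyp7a1 is a gene with a daily rhythm, and the part of the clock in these differences was not tested.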

How the data were processed

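Total RNA of 12 liver samples was labelled with Cy3 and hybridised to one-colour Agilent arrays. The deposited intensity values come from Agilent Feature Extraction 10.7.3.1, per the submitters' processing notes, and the processed signal is corrected for background and spatial trend, per the file headers. The authors' deposited value table differed from that signal by at most 0.497%, and its log base, centring and scaling were not stated in the sources used here; its column medians ran from 21.6 to 29.5.

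Processed intensities were divided by the 75th percentile of the array and put on the log2 scale. That percentile ran from 348.9 to 419.6, and 50.1% to 57.7% of spots were well above background. Control spots and outlier spots were left out, and spots of 1 probe were averaged. Probes entered the test if some group had all 3 of its arrays well above background, and the brightest probe stood for its gene. This gave 29806 probes and 22130 genes. Of the 38 probes of the sterol genes, 35 were well above background on all 12 arrays, and none was saturated. Names followed the probe accession where RefSeq held it. Group means were fitted in limma 3.58.1 (R 4.3.3) with lmFit and eBayes over all 12 arrays, with 8 residual degrees of freedom, and tested on simulated data first. The number of arrays limits the precision.

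The named genes include all the sterol genes with all their probes, Il18, and the clock genes Dbp, Arntl and Nr1d1. From each other list up to 4 genes with the smallest p at 6 weeks were picked, and up to 2 more at 12 weeks. Only some of the genes so picked are described above. Some genes of the list of further sterol and isoprenoid synthesis are not reported here. The sterol genes and the lists were chosen with earlier results of these data known. Same-numbered replicates deviated together with correlations from -0.06 to 0.18, and the numbers do not pair the samples. Alternatives covered the normalisation, background, filter, probes, slide, replicate block, samples in the fit and each array left out.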

Additional observations from a re-analysis of the deposited data

Results flagged for a closer look

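The genotype difference of Insig2 differed between the ages by the interaction test in limma, at -2.56 ± 0.31 (12 weeks minus 6 weeks, log2, adjusted p = 0.00108): it was 2.02 at 6 weeks and -0.54 at 12 weeks, with all 3 knockout arrays above all 3 wild-type arrays at 6 weeks and all 3 below at 12 weeks. The genotype difference of Stard4 differed the other way by the same test, at 0.80 ± 0.19 (adjusted p = 0.0237): it was -0.59 at 6 weeks and 0.21 at 12 weeks, again without overlap at either age. The second Stard4 probe gave -0.43 at 6 weeks and -0.11 at 12 weeks, without a change of sign. Its interaction test gave 0.32 ± 0.22 (adjusted p = 0.417 over all probes).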

How the results depend on the processing

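No call on a sterol gene changed its sign under any alternative tried. A percentage in brackets is the share of all genes that passed in the same fits. Knockout against wild type at 6 weeks gave 4 genes (21.1%). With slide as a fixed block it gave 1 (2.66%), and as a random block 2 (5.54%). Leaving out each array gave 2 to 8 (11.7% to 27.6%). At 12 weeks the genotypes gave 1 gene (8.21%), and 0 with only the 2 groups in the fit (1.84%). With an array left out the count was 0 to 2 (3.07% to 9.25%). Age in wild type gave 5 genes (9.04%), and 8 with normexp background correction (10.9%) or an intensity trend (10.6%). It gave 1 with no filter on dim probes (3.41%) or with slide as a fixed (3.29%) or random block (4.88%). With only the 2 groups it gave 0 (2.2%), and with an array left out 1 to 7 (4.44% to 17.4%). Age in knockout gave 2 genes (6.91%), and 1 with no filter (2.02%) or with the mean of a gene's probes (6.71%). It gave 4 with only the 2 groups (7.14%) and 0 to 3 with an array left out (2.73% to 7.99%). The difference between the ages gave 2 genes (10.3%), and 1 with no filter (3.72%) or the mean of probes (10.5%). It gave 3 with normexp background correction (12.4%), an intensity trend (12.6%) or probes well above background on all 12 arrays (12.1%). In those fits Pmvk was added, lower. With an array left out 1 to 6 genes passed (7.01% to 15%). With the replicate number as a block, age in knockout and the difference between the ages each gave 1 gene (5.92% and 9.11%). Stard4 no longer passed there (adjusted p = 0.0568 and 0.0514), and the block changed no other call. The 6-week wild-type group was also left out of the fit, an alternative chosen after seeing the data. That fit gave 1 gene at 12 weeks (5.04%) and 3 for age in knockout (4.94%). Limits are the 3 arrays a group, the slide that holds every 6-week wild-type array, and an unrecorded hour of killing.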
